A study of Rattus norvegicus with 56 samples.

Results

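The messenger RNA levels of 9 hypoxia-responsive genes, Vegfa, Adm, Egln3, Bnip3, Pdk1, Slc2a1, Pfkfb3, Ankrd37 and Ndrg1, were followed on expression arrays of rat hippocampal neuron cultures that had received repetitive transcranial magnetic stimulation (rTMS). These genes were chosen by name, and a probe was taken as theirs when its RefSeq accession belonged to the gene. They had 16 probes, all of which were among the 35694 probes tested, and they are 9 of the 13888 genes with a tested probe. The probe with the highest mean level stood for each gene, and that probe was well above background on 55 of 55 arrays for each of the 9 genes. The cultures were prepared from the hippocampi of Sprague Dawley rat embryos at embryonic day 18, and no group carried a genetic change. Dishes lay on an inverted coil and were given either regular single pulses (1 Hz) or intermittent theta bursts (iTBS), which are brief trains of pulses with pauses between them. Sham dishes stood in the same kind of incubator with the coil about 20 cm away, and untreated control dishes (CTR) were collected at 0 h only. RNA was taken 0, 2, 8, 24 or 48 h after the end of stimulation. The labels do not say whether samples of a group came from separate cultures or animals, so p-values measure the spread between samples, which may be partly technical.

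Cells sense low oxygen mainly through the hypoxia-inducible factors (HIF). With oxygen at hand, prolyl hydroxylases mark the HIF alpha subunit for the VHL ubiquitin ligase, and it is degraded. When oxygen falls the subunit lasts, pairs with ARNT and binds a short core sequence near its target genes. Among the 9 genes, Vegfa encodes a growth factor for blood vessels and neurons, and Adm encodes adrenomedullin, a peptide that widens vessels. Egln3 encodes the prolyl hydroxylase PHD3, so it is both a target of HIF and part of its feedback. Slc2a1 encodes the glucose transporter GLUT1, Pfkfb3 an enzyme whose product speeds glycolysis, and Pdk1 a kinase that keeps pyruvate out of the mitochondria. Bnip3 encodes a mitochondrial protein that promotes removal of mitochondria. Ankrd37 encodes an ankyrin repeat protein and Ndrg1 a protein induced by stress and differentiation, and both are commonly used as markers of hypoxia. In the brain, GLUT1 is known mainly from vessel walls and astrocytes, and cultured neurons share their dish with some glia.

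The promoters of the 3 genes that rose with time in these cultures are shown first, because the HIF core is a short and easily read sequence. They are the 250 bases before the RefSeq transcription start (assembly GRCr8), written 5′ to 3′ along the strand of the gene in lower case, and capitals mark matches to ACGTG or GCGTG on either strand.
Ankrd37: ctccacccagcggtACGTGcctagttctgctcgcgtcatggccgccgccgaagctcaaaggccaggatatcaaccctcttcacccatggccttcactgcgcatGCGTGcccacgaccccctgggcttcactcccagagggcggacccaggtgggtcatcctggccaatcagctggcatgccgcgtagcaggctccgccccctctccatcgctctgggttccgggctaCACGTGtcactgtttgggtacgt
Slc2a1: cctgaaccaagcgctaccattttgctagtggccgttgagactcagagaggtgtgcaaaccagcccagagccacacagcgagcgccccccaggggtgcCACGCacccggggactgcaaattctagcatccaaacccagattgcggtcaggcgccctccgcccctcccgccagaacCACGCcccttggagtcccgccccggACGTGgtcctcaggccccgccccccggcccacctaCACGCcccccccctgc
Egln3: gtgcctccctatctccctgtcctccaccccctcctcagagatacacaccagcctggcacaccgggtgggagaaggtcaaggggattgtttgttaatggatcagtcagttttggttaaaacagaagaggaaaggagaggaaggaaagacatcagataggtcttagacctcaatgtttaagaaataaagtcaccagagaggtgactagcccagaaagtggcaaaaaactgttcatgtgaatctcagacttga
A promoter was found for 8 of the 9 genes, Ndrg1 being without an entry. The Ankrd37 window held 4 matches, of which the pair at 23 and 22 bases before the start overlap, because CACGTG reads the same on both strands. In the Slc2a1 window there were 4 matches, at 153, 76, 51 and 16 bases before the start. No match was found in the Egln3 window. Among the other promoters, Bnip3 had 4 matches, Pdk1 and Pfkfb3 had 2 each, and Vegfa and Adm had 0. The 2 in Pfkfb3, at 42 and 41 bases, overlap in the same way, as do those of Bnip3 at 99 and 98 bases. Thus 5 of 8 windows held a match, against 10400 of 27457 promoters of that length in the table (37.9%). The 8 windows had 46.8% to 72.4% G and C (median 64%), and the median over all promoters was 52%, so the windows also differed from most in base composition. A match describes letters only, and no binding was measured here.

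After 1 array with a badly placed grid (1 Hz at 2 h, replicate 2) was left out, 55 arrays remained, with 2 to 4 arrays in each of 16 groups. The level of a gene is its log2 signal scaled so that the probes of an array have a mean of 0, and a difference of 1 is about a doubling of signal on this scale. The sample numbers in the labels fall into 4 runs, called series A, B, C and D here, with 11, 12, 17 and 15 arrays. What the runs stand for is not stated, and sham, 1 Hz and iTBS samples of a series and time carry consecutive numbers. The arrays lay on 7 slides. Series A, B and C never shared a slide, series D was spread over all of them, and within a series the slides largely followed the time points. Neuron markers were well above background on every array for 8 of 8 genes, as were 7 of 7 astrocyte markers and 8 of 8 oligodendrocyte lineage markers, so the cultures also held glial RNA. For endothelial cells this held for 2 of 6 markers, and Cldn5 was well above background on 6 arrays only.

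**Figure D1:**
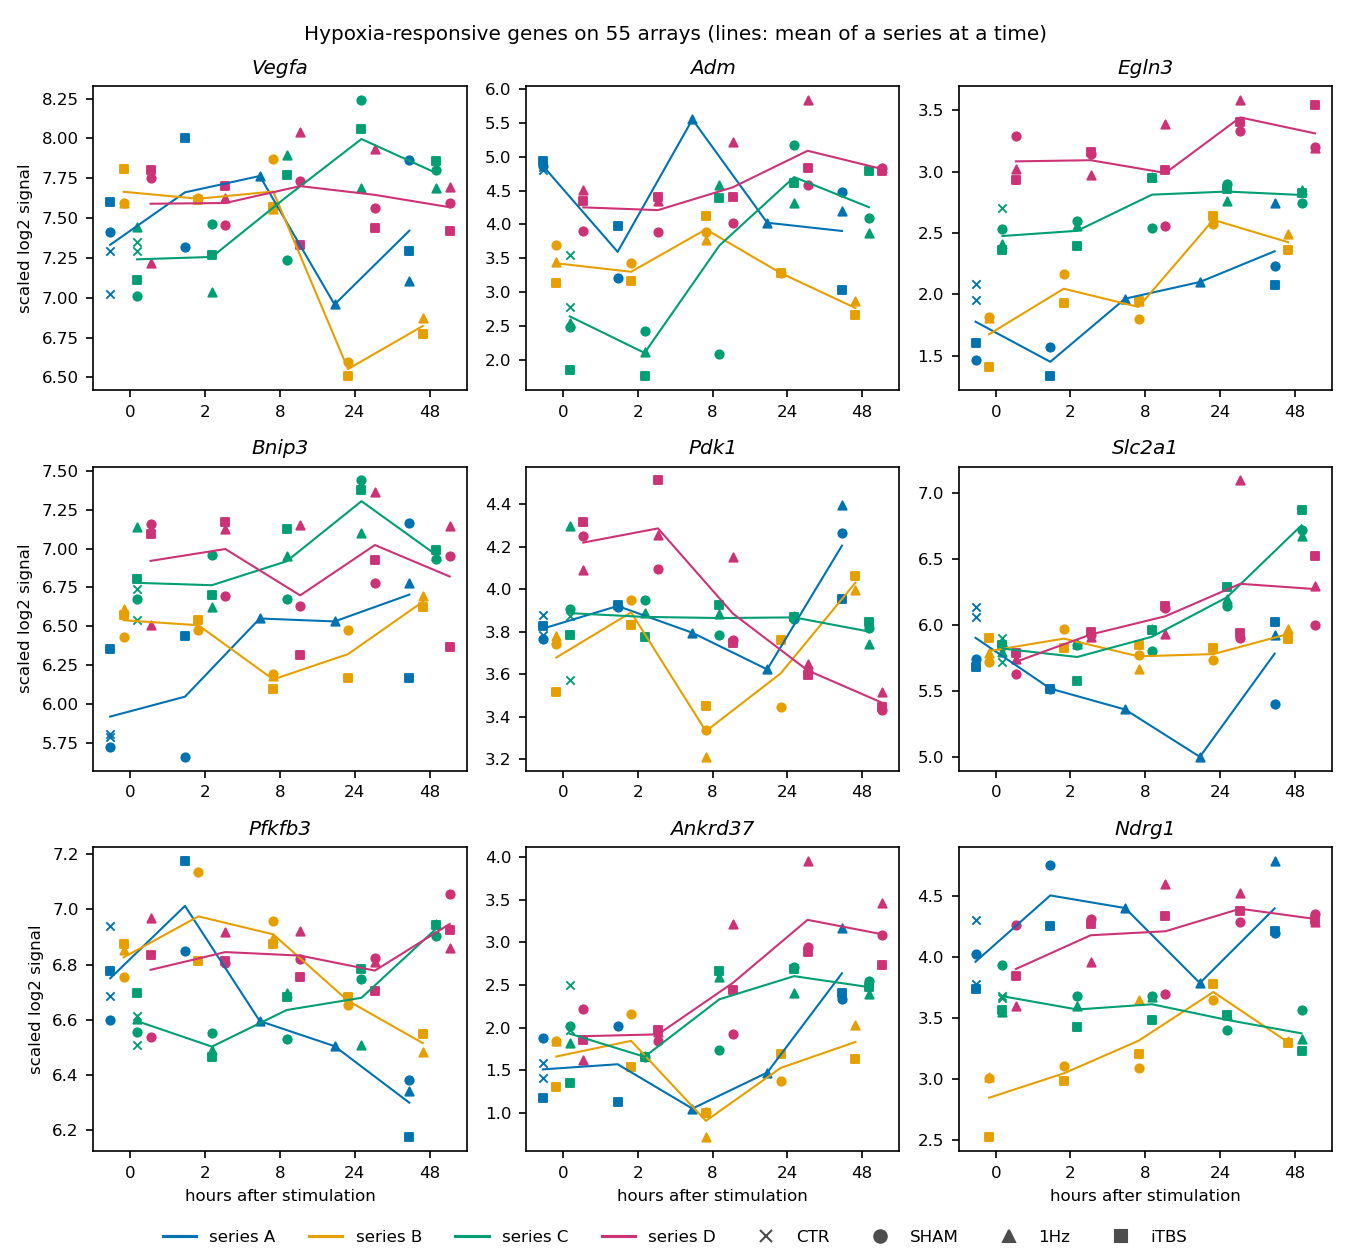
Level of each hypoxia-responsive gene (scaled log2 signal, vertical axis, a separate range for each gene) on the 55 arrays by hours after stimulation. Colours mark the 4 series, symbols the treatment and lines the mean of a series at a time. Series D lies highest for Egln3, with a mean of 3.18 against 1.92 in series A, and for Adm the sham point of series C at 8 h (2.08) lies far below the stimulated points of its colour.

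The question asked by the design was whether stimulation changed expression relative to sham at the same time. None of the 9 genes passed the test in any of the 10 comparisons of a protocol with sham. At the same threshold (limma, Benjamini-Hochberg adjusted p under 0.05 over all probes) 0, 2, 1, 0 and 0 probes of the whole array passed for 1 Hz over the 5 times in order, which is at most 0.0056% of those tested. For iTBS the counts were 0, 0, 2, 0 and 0 probes, again at most 0.0056%. The limma fit here compared group means and did not hold series fixed. In it 0 of the 9 genes had an unadjusted p under 0.05 in each of the 10 comparisons. Of the array, 197 to 1405 probes did. Arrays matched by series and time are compared below. The sham arrays of a time serve both protocols, so the comparisons with 1 Hz and with iTBS are not independent.

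The largest difference was that of the vessel peptide Adm at 8 h. Its level was 3.89, 2.08 and 4.02 in the 3 sham arrays of series B, C and D. In the 4 arrays of 1 Hz, from series A, B, C and D, it was 5.55, 3.77, 4.59 and 5.23, and in the 3 arrays of iTBS, from series B, C and D, it was 4.13, 4.39 and 4.40. The 1 Hz arrays overlapped the sham arrays through series B, and the iTBS arrays lay just above them. The 1 Hz group was 1.45 higher than sham (95% confidence interval −0.0017 to 2.91, limma adjusted p = 1), and the iTBS group 0.98 higher (−0.58 to 2.53, adjusted p = 1). Much of this rested on the sham array of series C, which read 2.08 where the stimulated arrays of that series read 4.59 and 4.39. Within series B, by contrast, 1 Hz was 0.12 below sham. With series at each time as a block the difference for 1 Hz was 1.20 (adjusted p = 0.951).

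At 48 h Adm lay the other way, 0.65 below sham with iTBS (95% confidence interval −2.10 to 0.81) and 0.52 below with 1 Hz (−1.98 to 0.93). The sham arrays at 48 h were of series A, C and D, while each stimulated group also held 1 array of series B. These series B arrays were the lowest of their groups for Adm (2.66 with iTBS and 2.87 with 1 Hz) and for Vegfa (6.77 and 6.87). Within series A, C and D, Adm differed from sham by −1.44, 0.71 and −0.05 with iTBS and by −0.28, −0.21 and 0.002 with 1 Hz. Smaller differences were found in other genes. The stress marker Ndrg1 was 0.59 higher in 1 Hz than in sham at 8 h (95% confidence interval −0.23 to 1.40), and Ankrd37 was 0.57 lower in iTBS than in sham at 0 h (−1.46 to 0.32). At 48 h Bnip3 was 0.48 lower in iTBS (−1.14 to 0.18), and Vegfa was 0.42 lower in iTBS and 0.41 lower in 1 Hz, both against the same 3 sham arrays. None of them passed (adjusted p = 1 in limma). For Vegfa at 48 h the differences within series A, C and D were −0.57, 0.06 and −0.17 with iTBS and −0.76, −0.11 and 0.10 with 1 Hz. The enzyme genes were the tightest. Over the 5 times and both protocols, Pdk1 differed from sham by −0.05 to 0.14 and Pfkfb3 by −0.13 to 0.20. Their 95% confidence intervals stayed between −0.46 and 0.60 and between −0.55 and 0.56, so a doubling of signal lay outside all of them, whereas for Adm the intervals reached from −2.10 to 2.91.

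**Figure D2:**
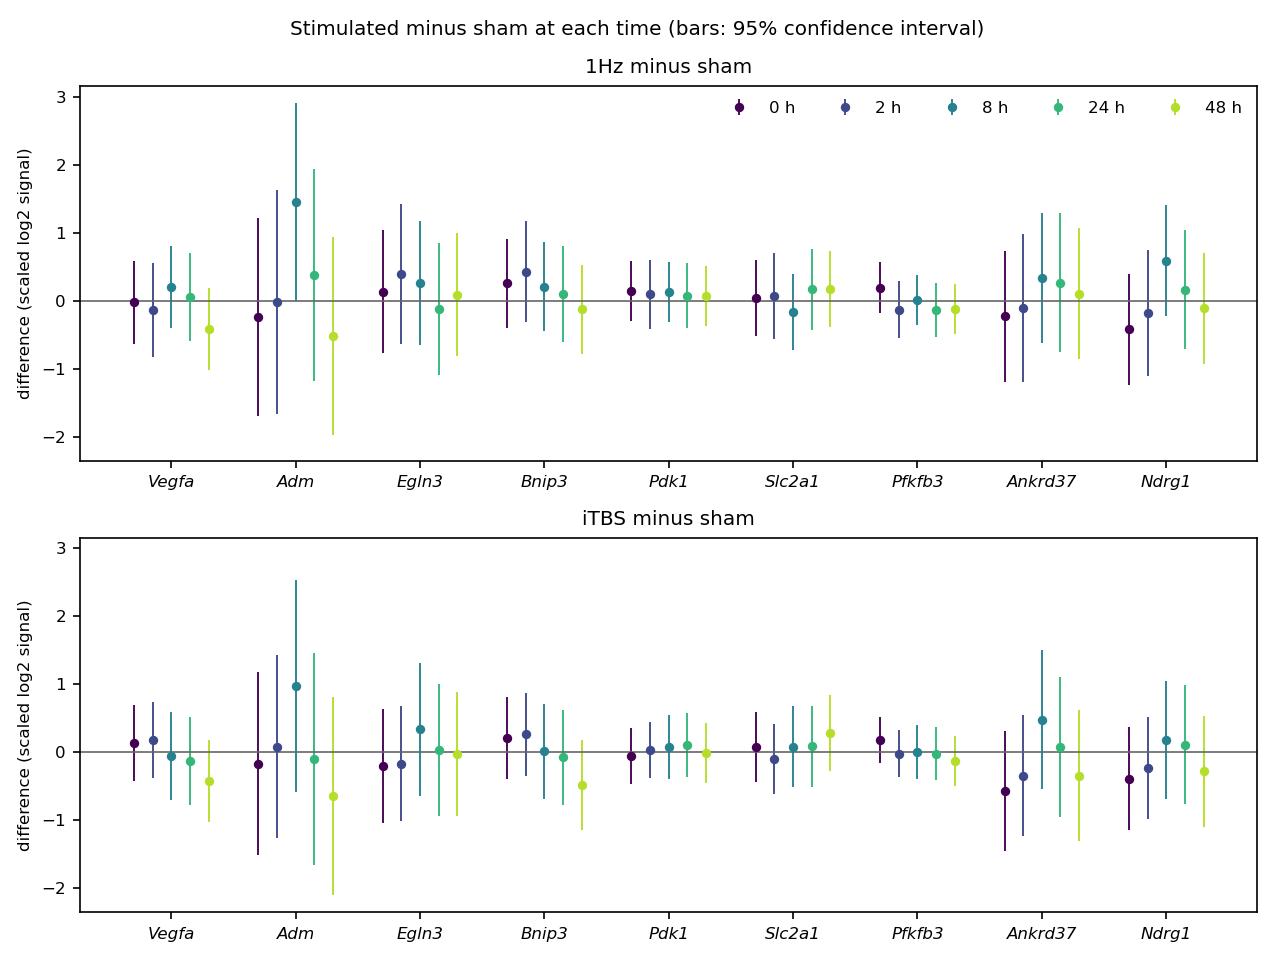
Difference between stimulated and sham arrays (scaled log2 signal, vertical axis) for each gene at each of the 5 times, for 1 Hz above and iTBS below. Points are limma estimates from 2 to 4 arrays a group and bars their 95% confidence intervals. Every interval includes 0, and the Adm point of 1 Hz at 8 h stands highest at 1.45.

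Pairs of arrays from the same series and time were compared as well. There were 13 such pairs for 1 Hz and 17 for iTBS. Slc2a1 was higher than its sham in 8 of 13 pairs with 1 Hz and in 13 of 17 with iTBS, with median differences of 0.06 and 0.08. Ankrd37 was higher in 5 of 17 pairs with iTBS (median −0.06) and Ndrg1 in 6 of 17 (median −0.12). At 0 h alone all 4 pairs with iTBS lay one way for 4 genes. Ankrd37 was lower by 0.71, 0.54, 0.67 and 0.36 in series A, B, C and D, and Ndrg1 was lower in 4 of 4. Pfkfb3 was higher in 4 of 4, from 0.12 to 0.30, and so was Vegfa, from 0.05 to 0.21. Egln3 was higher at 8 h in 3 of 3 pairs with each protocol, by 0.14, 0.41 and 0.83 with 1 Hz and by 0.14, 0.41 and 0.46 with iTBS, both against the same sham arrays. Adm had the widest range, from −1.44 to 2.31 with iTBS, around a median of 0.08. When the series at each time was a block in the fit, the smallest adjusted p of the 9 genes in any comparison was that of Ndrg1 for iTBS at 0 h (difference −0.39, limma adjusted p = 0.188), followed by Ankrd37 in the same comparison (−0.57, adjusted p = 0.221).

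None of the 9 genes passed in the other contrasts of treatment. Averaged over the 5 times, the differences from sham lay between −0.06 and 0.21 for 1 Hz and between −0.14 and 0.09 for iTBS. The protocols did not differ by the test from each other for any of the 9 genes at any time, where at most 2 probes of the array (0.0056%) passed. In untreated control against sham at 0 h the 9 differences ran from −0.28 to 0.26 and 0 passed, against 1 probe (0.0028%) of the array. In these 8 comparisons too, 0 of the 9 genes had an unadjusted p under 0.05 in the fit of group means without series. None of the other genes of the pathway lists or marker lists passed in any comparison of treatment. The mitochondrial hypoxia gene Higd1a, for example, was 2.43 higher in iTBS than in sham at 8 h with an unadjusted p = 0.00268 in limma (adjusted p = 1).

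Time after stimulation was compared with the SHAM, 1 Hz and iTBS groups averaged and with the series held fixed. The fit counts arrays of the same series and time as independent. Deviations of such arrays correlated at a mean of 0.497, against 0.398 for all pairs of the same series. The fit also does not allow for courses over time that differ between series, so its p-values for time may be too small. At 2 h 0 of the 9 genes and 0 probes of the array passed, though 1020 probes had an unadjusted p under 0.05 and none was among the 9. At 8 h 0 of the 9 passed, against 2.37% of all probes, and 1 of them, Ndrg1, had an unadjusted p under 0.05. At 24 h Egln3 and Ankrd37 rose, which is 2 of 9 where 8.58% of probes rose and 14% passed in either direction. At 48 h Ankrd37, Egln3 and Slc2a1 rose, which is 3 of 9 where 13.6% of probes rose and 27% passed in either direction. None of the 9 fell. The median difference of the 9 genes was 0.21 at 24 h and 0.26 at 48 h, and over all probes it was −0.03 and −0.04.

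The oxygen sensor Egln3 gave the firmest change. At 0 h its lowest, median and highest levels were 1.41, 2.36 and 3.29 in 11 arrays, at 24 h 2.10, 2.86 and 3.58 in 9 arrays, and at 48 h 2.08, 2.75 and 3.54 in 11 arrays. The ranges overlapped because the series differ, and within each series all arrays at 24 h lay above all arrays at 0 h. In series A this was 1 array at 24 h (2.100), against up to 2.084 in the untreated controls at 0 h. At 48 h levels overlapped those at 0 h in series D (from 3.19, against up to 3.29). Series A overlapped only through an untreated control (2.078 at 48 h against 2.084 at 0 h). In series B the 3 arrays at 0 h read 1.41, 1.80 and 1.81, and the 2 at 24 h read 2.57 and 2.64. In series D the levels were 2.94, 3.02 and 3.29 at 0 h and 3.33, 3.41 and 3.58 at 24 h. The difference from 0 h was 0.55 at 24 h (SE 0.10, 1.46-fold, limma adjusted p = 0.000237) and 0.52 at 48 h (SE 0.10, 1.43-fold, adjusted p = 0.000129), and it was 0.10 at 2 h and 0.18 at 8 h. Leaving out any single array ended neither call. With the slide as a further block the differences were 0.79 and 0.90 (adjusted p = 0.00197 and 0.000663). Without a term for series they were 0.65 and 0.50 and did not pass (adjusted p = 0.174 and 0.205).

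Ankrd37 moved furthest. It read 1.17 to 2.22 (median 1.84) at 0 h, 1.37 to 3.95 (median 2.69) at 24 h and 1.63 to 3.46 (median 2.48) at 48 h, and 10 of 11 arrays at 48 h lay above the mean at 0 h. The difference was 0.65 at 24 h (SE 0.21, 1.57-fold, limma adjusted p = 0.0294) and 0.84 at 48 h (SE 0.20, 1.78-fold, adjusted p = 0.00182). The rise at 24 h lay in series C (mean 1.93 at 0 h and 2.60 at 24 h) and D (1.90 and 3.26). It was not seen in series B (1.66 and 1.53) or A (1.51, and 1.47 in 1 array). The means at 0 h include the untreated controls of series A and C. The call at 24 h was lost when any of 6 arrays was left out (sham at 0 h replicate 4, sham at 24 h replicates 2 and 3, 1 Hz at 0 h replicate 3, 1 Hz at 24 h replicate 3 and iTBS at 24 h replicate 3), with differences between 0.49 and 0.79 over all arrays left out. With the slide as a block neither call was kept (0.44, adjusted p = 0.392, and 0.82, adjusted p = 0.0707). The call at 24 h was also lost without a term for series (0.74, adjusted p = 0.138) and with normexp (0.51, adjusted p = 0.0501).

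The glucose transporter gene Slc2a1 had a narrow range at 0 h, from 5.63 to 5.90 (median 5.79), and a wide one later, from 5.004 to 7.09 (median 5.94) at 24 h and from 5.41 to 6.87 (median 6.02) at 48 h. Series C held the highest levels at 48 h, 6.67, 6.72 and 6.87, and 10 of 11 arrays at 48 h were above the mean at 0 h. The rise at 48 h was 0.45 (SE 0.13, 1.37-fold, limma adjusted p = 0.011). It did not pass without sham at 48 h replicate 2 (0.35), nor with the slide as a block (0.26, adjusted p = 0.483), with normexp (0.36, adjusted p = 0.053) or without a term for series (0.42, adjusted p = 0.0706). At 24 h the difference was 0.21 (adjusted p = 0.371).

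The other 6 genes did not pass at any time. Adm was 0.83 higher at 24 h than at 0 h (95% confidence interval 0.16 to 1.495, limma adjusted p = 0.0917), which passed when 1 Hz at 24 h replicate 1 was left out (1.01). Ndrg1 was 0.32 higher at 24 h (0.07 to 0.56, adjusted p = 0.0832) and 0.26 higher at 48 h (0.02 to 0.50, adjusted p = 0.0952). It passed at 24 h when any of 5 single arrays was left out, and at 48 h when either of 2 was. Pdk1 was 0.26 lower at 24 h (−0.50 to −0.01, adjusted p = 0.17), and 0 of 9 arrays at 24 h lay above its mean at 0 h, but with the slide as a block its sign turned, to 0.12 higher at 24 h (adjusted p = 0.694) and 0.38 higher at 48 h (adjusted p = 0.0954). Bnip3 was 0.19 and 0.18 higher at 24 and 48 h. Vegfa, at −0.06 and −0.02, and Pfkfb3, at −0.05 and −0.03, stood nearest to 0.

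**Figure D3:**
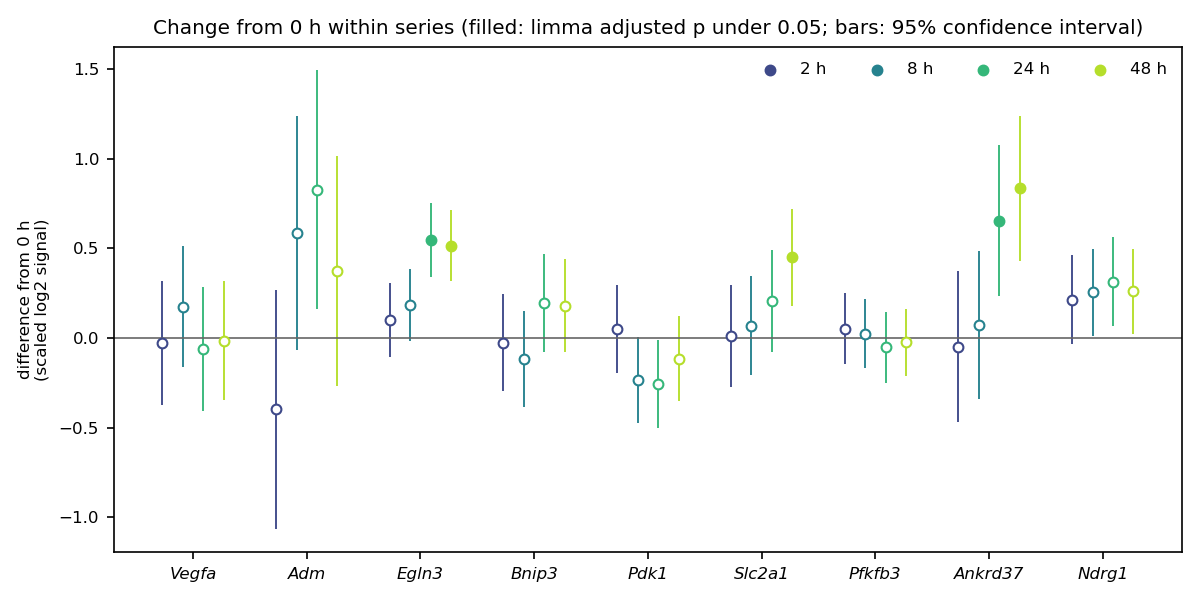
Difference from 0 h (scaled log2 signal, vertical axis) of each gene at 2, 8, 24 and 48 h, from the fit with series held fixed, with 95% confidence intervals. The intervals count arrays of the same series and time as independent. Filled points passed the test. They are Egln3 at 0.55 and 0.52, Ankrd37 at 0.65 and 0.84, and Slc2a1 at 0.45.

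Sham arrays show whether time alone goes with such levels. In the sham group Egln3 averaged 2.28 ± 0.81 (SD, n = 4) at 0 h, 2.93 ± 0.38 (n = 3) at 24 h and 2.73 ± 0.49 (n = 3) at 48 h. Ankrd37 averaged 1.99 ± 0.17, 2.35 ± 0.85 and 2.66 ± 0.38 at these times, and Slc2a1 5.73 ± 0.09, 5.93 ± 0.20 and 6.04 ± 0.66. The means of all 3 genes were thus higher at 48 h than at 0 h in sham dishes as well. These arrays came from series A, B, C and D at 0 h and from A, C and D at 48 h. Within series, Ankrd37 was higher at 48 h in A, C and D. Egln3 was lower in D (3.29 at 0 h and 3.20 at 48 h) and Slc2a1 in A (5.74 and 5.41), and each was higher in the other series. With series held fixed the differences at 48 h for Egln3, Ankrd37 and Slc2a1 were 0.36, 0.55 and 0.31 in this smaller set (limma adjusted p = 0.362, 0.376 and 0.499). Over the whole array 12 probes passed at 48 h in that fit.

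Astrocyte markers moved with the same times. At 48 h 5 of 7 rose, Gfap by 1.64 (limma adjusted p = 5.55e-07), Aqp4 by 1.04, S100b by 1.03, Gja1 by 0.70 and Slc1a2 by 0.48, and the mean level of the 7 ran from 5.80 to 6.52 at 0 h and from 6.28 to 7.42 at 48 h. Of the neuron markers 3 of 8 fell, Map2 by 0.64, Tubb3 by 0.63 and Stmn2 by 0.38, with mean levels of the 8 from 5.30 to 6.18 at 0 h and from 5.24 to 6.04 at 48 h. Markers of microglia, endothelium, oligodendrocyte lineage and dividing cells gave 0 calls at 24 and 48 h. Of all probes 14% and 27% passed at these times, with 13.6% rising and 13.4% falling at 48 h. In bulk RNA, fewer cells of a type and less RNA per cell cannot be told apart. The part of the change in glial and neuronal markers, and of the slide, in the rise of the 3 genes was not tested.

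Other genes of the HIF pathway are read against all probes, of which 13.6% rose and 13.4% fell at 48 h. Of 12 tested components at 48 h, 0 rose and 2 fell, the prolyl hydroxylase gene Egln2 by 0.30 (limma adjusted p = 0.017) and Cited2, a brake on HIF, by 0.32 (adjusted p = 0.0352). Arnt, the partner of the alpha subunits, rose by 0.34 at 8 h and by 0.30 at 24 h. Hif1a itself differed by −0.24 at 24 h and did not pass (adjusted p = 0.301). Among 15 receptors and relatives of the 9 genes, 7 rose and 2 fell at 48 h, beside the same shares of 13.6% and 13.4%. Pdk2 (1.29) and Pdk4 (1.29), kinases of the same family as Pdk1, rose, although Pdk4 was well above background on 6 arrays only. Placental growth factor Pgf rose by 1.26 and the adrenomedullin receptor subunits Ramp1, Ramp3 and Ramp2 by 0.71, 0.42 and 0.32, while Nrp1, a co-receptor of VEGF, fell by 0.51.

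In glycolysis and lactate transport 7 of 25 genes rose at 48 h and 3 fell (all probes 13.6% and 13.4%), with a median over the list of 0.10. The lactate exporter Slc16a3 rose by 1.17 (limma adjusted p = 0.0418), the glycogen targeting subunit Ppp1r3c by 1.16 and Aldoc by 0.49. The hexokinase Hk2, which is itself a textbook target of HIF, fell by 1.41 (adjusted p = 2.48e-05), and Hk1 fell by 0.36. Of 29 further hypoxia targets 7 rose and 3 fell at 48 h. Angptl4, a lipase inhibitor, rose by 2.87 (adjusted p = 4.14e-10), and the collagen-modifying enzymes Plod1, P4ha2, Plod2 and P4ha1 rose by 1.07, 0.76, 0.59 and 0.56. The transferrin receptor gene Tfrc fell by 0.93 and Stc1 by 0.63. At 24 h the counts were 1 up and 0 down for the components, 5 and 2 for receptors and relatives, 2 and 1 for glycolysis and 6 and 3 for further targets, where 8.58% of all probes rose and 5.39% fell.

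Levels also differed between the series of sample numbers. With group held fixed, 6 of the 9 genes differed between series by a moderated F test, while 75.4% of all probes did. They were Egln3 (limma adjusted p = 4.22e-15), Ndrg1 (1.2e-10), Bnip3 (4.79e-06), Ankrd37 (2.94e-05), Adm (0.000108) and Slc2a1 (0.00507). Vegfa (0.236), Pdk1 (0.132) and Pfkfb3 (0.077) did not pass, but each did under other settings. Vegfa passed with quantile normalization (0.0401) and with normexp (0.0384), Pfkfb3 with these (0.00503 and 0.00193) and with scaling to the 75th percentile (0.04), and Pdk1 with the z-scores of the authors (0.0466) and with the slide as a block (1.19e-05). Of the variance over the 55 arrays, series accounted for 73.3% in Egln3, 68.5% in Ndrg1, 44.8% in Bnip3, 33.8% in Adm, 32.9% in Ankrd37, 20.8% in Slc2a1, 17.9% in Pfkfb3, 11.7% in Pdk1 and 8.78% in Vegfa. The share of time ran from 4.29% (Ndrg1) to 28.7% (Ankrd37), was 19.8% in Slc2a1 and, at 17.8%, was above that of series in Pdk1. The share of treatment, with untreated control counted as a treatment, ran from 1.07% (Pfkfb3) to 13.1% (Bnip3). The untreated controls lie at 0 h in series A and C only, so this share may also hold series and time. Arrays of the same series and time, whatever their treatment, shared 70.9% (Bnip3) to 91.9% (Egln3) of the variance.

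Egln3 ordered the series most plainly. Its lowest, median and highest levels were 1.33, 1.96 and 2.75 in series A, 1.41, 1.94 and 2.64 in series B, 2.36, 2.71 and 2.95 in series C and 2.56, 3.19 and 3.58 in series D. The difference of B from A did not pass (0.18, limma adjusted p = 0.182), C was 0.58 above B (adjusted p = 3.07e-06) and D was 0.52 above C (adjusted p = 1.24e-06). With scaling to the 75th percentile (0.31, adjusted p = 0.00917) and with quantile normalization (0.27, adjusted p = 0.0318), however, B passed as higher than A. Ndrg1 had another order. It was lowest in series B (2.52 to 3.78, median 3.15), then in C (3.23 to 3.93, median 3.56), and highest in A (3.74 to 4.78, median 4.21) and D (3.60 to 4.59, median 4.29), which differed by 0.01 (95% confidence interval −0.23 to 0.24).

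Ankrd37 and Adm, like Egln3, had their highest mean level in series D. In series D Ankrd37 read 1.63 to 3.95 (median 2.44) and in series B 0.71 to 2.16 (median 1.58), a difference of 0.99 (SE 0.18, limma adjusted p = 1.68e-05). Adm was 1.17 higher in D than in B (adjusted p = 0.000819) and 1.22 higher than in C (adjusted p = 0.000161), with levels of 3.90 to 5.84 in D, 2.66 to 4.13 in B and 1.76 to 5.17 in C. Bnip3 was higher in C and D than in A, by 0.67 and 0.59. Slc2a1 too was higher in C and D than in A, by 0.44 and 0.46. In all, 5 of the 9 genes were higher in D than in B and 0 lower, where 28.9% of all probes were higher and 53% passed. Against A the count was 4 higher (21.7% of probes) and against C 4 higher (28.7%), again with 0 lower. With the slide as a block, however, 2 genes were lower in D than in C, Bnip3 by 0.31 (adjusted p = 0.0483) and Pdk1 by 0.40 (adjusted p = 0.00104). Between C and A 4 genes were higher in C (20.9% of probes) and 2, Adm and Ndrg1, lower (22%). Between C and B 4 were higher in C (17.9%), and between B and A 2, Adm and Ndrg1, were lower in B (16.7%).

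Pathway genes moved between series in both directions. Between D and B the adrenomedullin receptor subunits Ramp3 and Ramp1 were 1.35 and 1.30 higher in D, while the receptor gene Calcrl was not well above background on every array, so no size is given for it. Cited2 was 0.80 higher in D and Hif1a 0.58 lower. Angptl4 was 3.08 and Slc16a3 2.54 higher in D. The counts of higher and lower genes were 3 and 6 of 12 HIF components, 7 and 3 of 15 receptors and relatives, 8 and 3 of 25 in glycolysis and 12 and 5 of 29 further targets, where 28.9% of all probes were higher and 24.1% lower.

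Series D also differed from the others in cell markers. Of all probes, 28.9% were higher and 24.1% lower in D than in B. In D, 20% of probes were lower than in A and 23.7% lower than in C. All 5 tested markers of dividing cells were lower in D than in each of the other series, with a mean level of 1.07 to 2.76 in D, 3.11 to 4.95 in A, 3.62 to 4.93 in B and 3.17 to 4.24 in C. Of 8 oligodendrocyte lineage markers 7 were lower in D than in B, with Mbp 4.03 and Pdgfra 3.80 lower, and the mean level of the list was 2.87 to 4.38 in D against 5.51 to 6.66 in B and 6.23 to 6.95 in C. Neuron markers were higher in D than in B for 5 of 8 genes, up to 0.90 for Snap25. Microglial markers split, with 4 of 8 higher and 3 lower in D than in B, and 5 of the 8 were not above background on every array. Of 7 astrocyte markers 1 was higher and 3 lower in D than in B, and of 6 endothelial markers 3 were higher and 1 lower. The part of these differences in cell make-up in the levels of the 9 genes was not tested, and with the slide as a block 6 of 9 genes again differed between series, Pdk1 in place of Slc2a1.

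**Figure D4:**
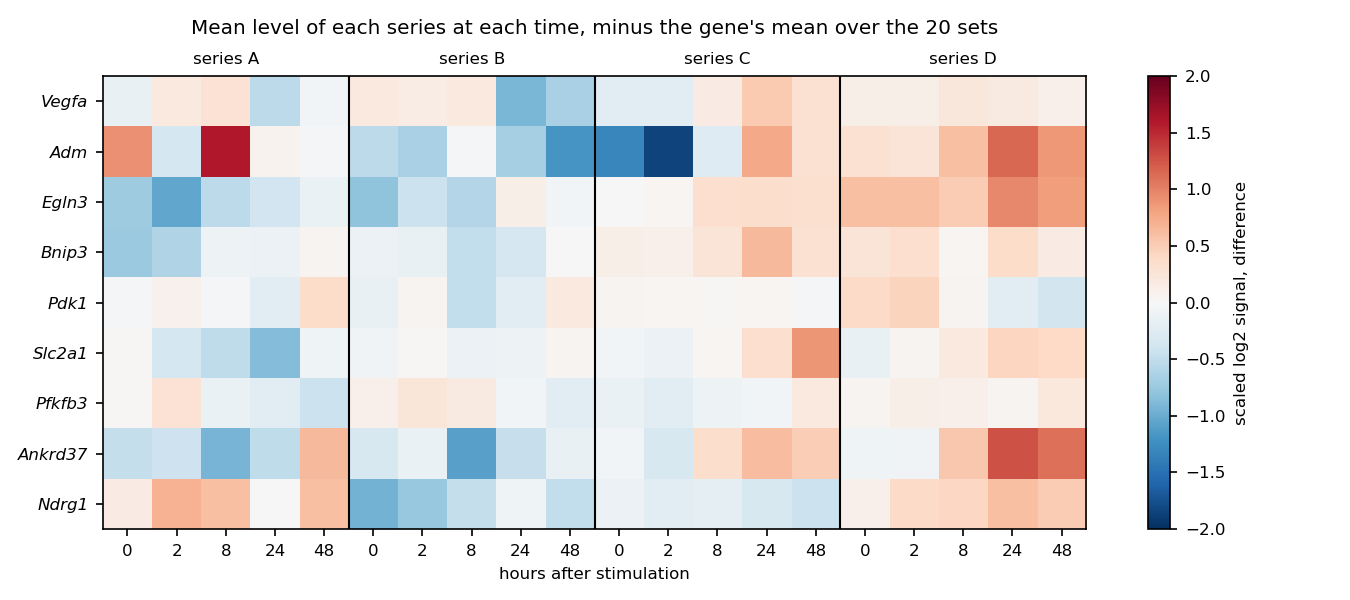
Mean level of each gene in each series at each time, minus the mean of the gene over the 20 sets of series and time (scaled log2 signal, colour). Each set holds 1 to 5 arrays. Ankrd37 stands 1.28 above its mean in series D at 24 h, and Adm 1.85 below its mean in series C at 2 h and 1.61 above it in series A at 8 h, a set of 1 array.

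The course over time differed between series. A moderated F test of series by time passed for 7 of the 9 genes, where 41.9% of all probes passed. Adm had courses that went apart. It read 1.85, 2.48, 2.55, 2.78 and 3.55 in series C at 0 h and 4.32, 4.61 and 5.17 at 24 h, without overlap, while in series B it read 3.13, 3.45 and 3.70 at 0 h and 2.66 and 2.87 at 48 h. Vegfa likewise was higher at 24 h in series C (7.69, 8.06 and 8.24, against 7.01 to 7.44 at 0 h) and lower in series B (6.51 and 6.60, against 7.59 to 7.81). Its difference of −0.06 at 24 h was thus an average over opposite courses. Pdk1 was at 4.09, 4.25 and 4.32 in series D at 0 h and at 3.43, 3.44 and 3.52 at 48 h, whereas in series A it was at 3.77 to 3.88 at 0 h and at 3.96, 4.26 and 4.40 at 48 h. Pfkfb3 was lower at 48 h than at 0 h in series A (6.17 to 6.38 against 6.60 to 6.94) and higher in series C (6.90 to 6.95 against 6.51 to 6.70). In series D Ankrd37 read 1.63, 1.86 and 2.22 at 0 h and 2.89, 2.95 and 3.95 at 24 h, and in series B it read 1.30, 1.84 and 1.84 at 0 h and 0.71, 1.00 and 1.01 at 8 h. With the slide as a further block 1 of the 9 genes, Vegfa, kept its call (limma adjusted p = 0.0324), and slide and time within a series largely cannot be told apart. For Egln3 (adjusted p = 0.083) and Bnip3 (0.361) the test did not pass.

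The 9 genes varied together only loosely. Over the 55 arrays 28 of 36 pairs had a Pearson correlation above 0, with a median of 0.29, and 5 pairs were over 0.5. The closest pair was Ankrd37 and Egln3 (r = 0.72, Spearman rho = 0.72), followed by Bnip3 and Egln3 (r = 0.65). After the mean of each series and time was taken away, the pair of Ankrd37 and Egln3 kept r = 0.63, and that of Bnip3 and Egln3 had 0.06, while Vegfa and Bnip3 had 0.78 in place of 0.47. These are descriptions over arrays that share series, slides and scaling. The single probes most like the mean of the 9 genes over the 55 arrays were those of Olfm4 (r = 0.84), Slc16a3 (0.83), Drd1 (0.82) and Ociad2 (0.82), followed by Acp5, Sstr1, Ndst3, Cartpt, Scara5 and MGC116197. Slc16a3 was also on the list of glycolysis and lactate transport. Within sets of series and time the correlations of these 10 were between 0.26 and 0.67.

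Other probes of the same gene did not always follow the brightest. For 4 genes there was more than 1 probe, and correlations with the brightest probe ran from 0.41 to 0.77. At 24 and 48 h 0 of the 7 further probes passed. Between series, however, 1 further Vegfa probe passed (limma adjusted p = 8.52e-06) where the brightest had not, and so did the 3 further probes of Pdk1 (5.34e-09 to 0.00104) and the second probe of Pfkfb3 (0.034). The remaining Vegfa probe, like the brightest, did not pass. For Bnip3 the median over its probes was 0.22 in D against C and −0.16 in B against A. Its brightest probe gave −0.08 and 0.16, and neither of these passed.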

How the data were processed

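RNA of cultured rat hippocampal neurons was hybridised to 1-colour Agilent arrays (Cy3), and the deposited scanner files, made with Agilent Feature Extraction 12.0.3.1, give a background-subtracted processed intensity for each spot. The deposited value table holds scores, which are z-scores of the authors within each array, and they differed from those made here by at most 0.005. Intensities were taken to log2, spots of a probe averaged without outlier spots, and each array was turned into z-scores and brought back to a log2 spread by the factor 4.06, the median of the array SDs. Of 45178 probes, 35694 were well above background on at least 3 arrays and were tested. Of these 17732 matched a gene symbol through RefSeq accessions (GRCr8), which is 13888 genes. Between 66.1% and 81.8% of spots were well above background on an array, and the number of arrays limits the precision.

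Tests used limma 3.58.1 in R 4.3.3 (lmFit, eBayes, two-sided, Benjamini-Hochberg over all probes of a comparison, threshold 0.05) on 55 arrays. Treatment was tested with group means, time with group and series in the model, series with group held fixed, and series by time with arm held fixed. The fits for time and for series count arrays of the same series and time as independent, so their p-values may be too small. Groups came from the sample titles, series from the numbers in the sample descriptions and slides from the names of the arrays. All 9 genes and the listed pathway and marker genes were named. The genes and lists were chosen with earlier results of these data known. Normexp used the median spot signal, since the mean was not in the files. The scripts were tested on simulated data. Other scalings, filters, blocks, probe choices and sets of arrays were tried.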

Additional observations from a re-analysis of the deposited data

Results flagged for a closer look

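For 7 of the 9 genes the course over time differed between the series of sample numbers by a test of that difference itself. The limma adjusted p of the series by time term was 0.00088 for Vegfa, 0.00176 for Adm, 0.000101 for Pdk1, 0.00587 for Ankrd37, 0.027 for Ndrg1, 0.00281 for Slc2a1 and 0.000166 for Pfkfb3, where 41.9% of all probes passed. With the slide as a block only that of Vegfa passed (0.0324). In groups of 4 arrays, no array stood out from its group in 72 tests of the highest and lowest values. On 4 arrays such a test finds only a value far from the rest. Groups of 2 or 3 arrays, among them sham at 8 h, were not tested in this way.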

How the results depend on the processing

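Counts of the 9 genes called changed most for time and series. With all 56 arrays, the badly gridded one included, the counts were 6 for 1 Hz against sham at 2 h, 6 for iTBS against 1 Hz at 2 h (where 17332 and 16650 of all 35694 probes were called too), 0 at 24 h, 1 at 48 h, 0 for B against A, 3 for C against A, 1 for C against B, 1 for D against C and 0 for series by time. With normexp they were 1 at 24 h and 8 for D against B. With the slide as a block they were 1 at 24 h, 1 at 48 h, 0 for B against A, 2 for D against A, 7 for D against C (5 higher and 2 lower) and 1 for series by time, and Ankrd37 in C against A turned to −0.21 (limma adjusted p = 0.72). Without a series term they were 0 at 24 h and 1 at 48 h, and with sham arrays only 0 and 0. The cause was not tested. Leaving out each array in turn gave 1 to 4 at 24 h, 2 to 4 at 48 h, 1 to 3 for B against A, 5 to 6 for C against A, 4 for C against B, 4 to 5 for D against A, 5 to 6 for D against B, 3 to 5 for D against C, 6 to 7 for the series test and 6 to 8 for series by time, and 0 for treatment. For B against A the count changed without sham at 0 h replicate 2, sham at 24 h replicate 1, 1 Hz at 48 h replicate 2, 1 Hz at 8 h replicates 1 and 2, iTBS at 0 h replicate 3 or iTBS at 2 h replicate 3. At 24 h it was 4 without 1 Hz at 24 h replicate 1 and moved by over 1.5 times also without sham at 0 h replicate 4, sham at 24 h replicate 3, 1 Hz at 0 h replicate 3, 1 Hz at 24 h replicate 3 or iTBS at 24 h replicate 3. The other 285 counts stayed within 1.5 times the value reported. Most of them were for treatment or for time at 2 or 8 h, where 0 stayed 0. Of the values of single genes and their medians, 2976 stayed on their side of the threshold without reversing a call or moving by over 1 SD where not called, 58 lost a call, 44 gained one and 77 that were not called moved by more than the SD between replicates.

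Replicate numbers did not pair the arrays, since deviations of arrays with the same number correlated at a mean of 0.16 (lowest −0.462) against 0.398 for the same series. With the replicate block in place of series, Ankrd37 differed by 0.83 and 0.85, Egln3 by 0.81 and 0.50 and Slc2a1 by 0.26 and 0.42 at 24 and 48 h, and the counts were 2 and 3. Where a probe was near background, as Pdk4, Flt1 or Cldn5, the array gives little more than a bound.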
